A study of Mus musculus with 16 samples.

Results

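Endothelial cells were followed in mouse kidney through 10 genes picked by symbol as their markers: Pecam1, Cdh5, Kdr, Flt1, Tek, Emcn, Ehd3, Plvap, Eng and Vwf. All 10 were found among the 52338 genes of the count table, and all 10 passed the filter on low counts that left 17731 genes to test. RNA came from whole kidneys of C57BL6 mice that all ate a high-fat diet and were sampled on day 15 after treatment. The groups were FAN with time-restricted feeding, FAN with ad libitum feeding, vehicle with time-restricted feeding and vehicle with ad libitum feeding, with 4 libraries each. FAN is not written out in the labels. The word folic stands in the column names of FAN and vehicle libraries alike, and only the vehicle columns also hold veh.

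Endothelial cells line every blood vessel, and in the kidney they range from the fenestrated capillaries of the glomerulus to the peritubular capillaries that surround the tubules. Their survival and sprouting are set by vascular endothelial growth factor (VEGF), which binds the receptors encoded by Kdr and Flt1, and by the angiopoietins, which bind the receptor encoded by Tek. Endoglin, from Eng, is a co-receptor for ligands of the TGF-beta and bone morphogenetic protein family. VE-cadherin, from Cdh5, and PECAM-1, from Pecam1, hold endothelial cells together. Plvap forms the diaphragms of fenestrae and caveolae, Emcn encodes a surface sialomucin, Ehd3 a membrane-trafficking protein enriched in glomerular endothelium, and Vwf the clotting glycoprotein von Willebrand factor. Some of these transcripts are not restricted to endothelium, since Pecam1 and Eng are also made by some leukocytes, and Pecam1 and Vwf by platelets and their precursors.

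The start regions of 6 genes (Kdr, Flt1, Tek, Emcn, Ehd3 and Eng) were found in the RefSeq promoter table on GRCm38, which spans 250 bases before to 50 after a gene's start. No entry was used for Pecam1, Cdh5, Plvap or Vwf. Starts are those of RefSeq, and the Ehd3 window (chr17:73804591-73804890) lies inside the gene of GENCODE M21, which begins at 73804134. The 3 receptor tyrosine kinase genes are shown because all 3 rose after FAN under time-restricted feeding. Each sequence runs from 250 to 21 bases before the start, 5′ to 3′ on the gene's own strand, at chr5:75978476-75978705 (minus strand) for Kdr, chr5:147726032-147726261 (minus strand) for Flt1 and chr4:94739039-94739268 (plus strand) for Tek. Capitals mark matches to the ETS motif letters CAGGAA or CCGGAA, read on either strand.
Kdr: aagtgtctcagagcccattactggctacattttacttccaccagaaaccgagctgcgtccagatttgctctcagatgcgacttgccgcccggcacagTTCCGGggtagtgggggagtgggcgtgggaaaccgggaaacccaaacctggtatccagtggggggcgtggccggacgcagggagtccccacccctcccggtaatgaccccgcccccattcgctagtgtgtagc
Flt1: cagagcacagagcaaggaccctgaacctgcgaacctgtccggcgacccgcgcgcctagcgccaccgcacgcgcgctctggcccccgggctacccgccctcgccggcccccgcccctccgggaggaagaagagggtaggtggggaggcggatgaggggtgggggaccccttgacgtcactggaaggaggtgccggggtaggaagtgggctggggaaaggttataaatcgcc
Tek: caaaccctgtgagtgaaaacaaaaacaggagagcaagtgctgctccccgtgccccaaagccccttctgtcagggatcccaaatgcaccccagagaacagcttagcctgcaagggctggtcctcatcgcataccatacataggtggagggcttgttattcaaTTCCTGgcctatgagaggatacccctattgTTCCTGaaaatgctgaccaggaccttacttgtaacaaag
ETS factors such as Erg and Fli1 are well-known regulators of endothelial genes. Letters CAGGAA or CCGGAA occurred, on either strand, in the window of 5 of the 6 matched genes, all but Flt1, and in 41.4% of all 32851 promoters of the table. GATA letters (AGATAA) occurred in 1 of the 6, Tek, and in 11.2% of all promoters. SOX letters (AACAAT) occurred in 2 of the 6, Tek and Emcn, and in 10.7% of all promoters, and KLF letters (CACACCC) in 0 of the 6 and in 7.95% of all promoters. The SOX match of Tek overlaps the second of its ETS matches by 2 bases. A match describes letters and not a bound site.

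Total counts per library ranged from 12450812 to 33976660, so that a count of 0 would allow up to 0.0883 to 0.241 CPM (counts scaled to library size) of the raw total, which covers counting error only. The smallest count behind any value of the 10 genes was 24, for Vwf. FAN ad libitum libraries stood apart in composition: transcripts of the mitochondrial genome took 24.9% ± 2.4 (SD, n = 4) of counts in FAN time-restricted, 10.3% ± 3.83 in FAN ad libitum, 19.8% ± 1.35 in vehicle time-restricted and 20.3% ± 2.32 in vehicle ad libitum libraries. TMM scaling factors were 0.865 to 0.975, 1.32 to 1.53, 0.816 to 0.891 and 0.844 to 0.922 in the same order. Libraries also carry an S number in the column name, whose meaning the labels do not give. It was taken here as a position on a sample sheet, which is an assumption. Wide gaps between the numbers were used here to class libraries as earliest, middle and latest, classes that the labels do not name. Sheet position below means this class, and the class rather than the number entered the fits. The earliest positions hold FAN time-restricted 6, FAN ad libitum 6 and 7 and vehicle 1 and 2 of both regimens. The middle positions hold only vehicle libraries, of both regimens, and the latest hold only FAN libraries. Kidney markers were present in every group, with 7 proximal tubule genes summing to between 1131 and 10297 CPM per library.

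Per kilobase of the longest coding transcript, the order of the 10 genes over all 16 libraries ran from Emcn at 32.0 ± 8.56 CPM per kb (SD, n = 16), Plvap at 28.2 ± 7.02, Eng at 14.9 ± 6.35 and Pecam1 at 12.1 ± 3.50 down to Vwf at 0.514 ± 0.373. Tek (6.39 ± 1.82), Flt1 (6.16 ± 1.91), Ehd3 (4.93 ± 1.37), Kdr (4.36 ± 1.43) and Cdh5 (3.60 ± 1.60) lay between them. Plvap exceeded Eng, Pecam1 exceeded Tek and Cdh5 exceeded Vwf in all 16 libraries. Emcn exceeded Plvap in 10 of 16, Eng exceeded Pecam1 in 11 and Tek exceeded Flt1 in 11, so these neighbours were not separated beyond their spread. This order pools the 4 groups, and some neighbours change places between them. Eng exceeded Pecam1 in all 8 FAN libraries, while its mean was below that of Pecam1 in vehicle time-restricted kidneys (8.80 and 9.15 CPM per kb) and in vehicle ad libitum kidneys (11.9 and 12.8). The mean of Kdr exceeded that of Ehd3 in FAN time-restricted kidneys (5.58 and 4.95). In FAN ad libitum kidneys Flt1 exceeded Tek (7.42 and 6.46) and Cdh5 exceeded Kdr (5.50 and 4.45). Flt1 exceeded Ehd3 in 13, Ehd3 exceeded Kdr in 12 and Kdr exceeded Cdh5 in 13.

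**Figure D1:**
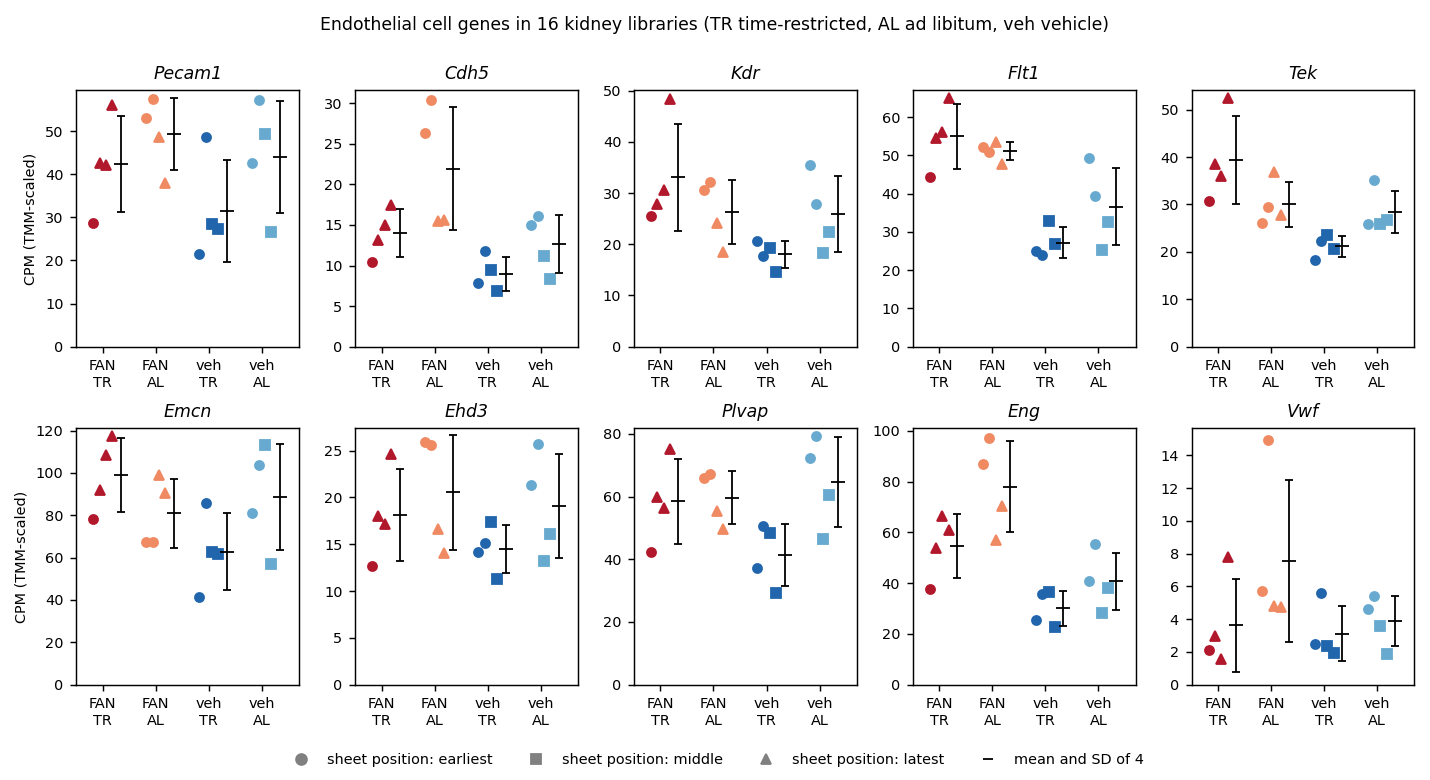
TMM-scaled CPM of the 10 endothelial cell genes (y axis of each panel, from 0) in the 4 groups, with a point per library shaped by its sheet position and a bar for the mean and SD of 4. Flt1, Kdr, Tek and Eng of FAN time-restricted kidneys lie above all 4 vehicle time-restricted kidneys, and Eng of FAN ad libitum kidneys above all 4 vehicle ad libitum kidneys.

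Under time-restricted feeding FAN kidneys held more transcript of the VEGF receptors, the angiopoietin receptor, endoglin and endomucin. Kdr, Flt1, Tek, Eng and Emcn rose by 0.65 to 1.02 on the log2 scale, and the other 5 genes did not pass the test. All changes are log2 changes of TMM-scaled counts, with the standard error (SE) and the adjusted p of edgeR's quasi-likelihood test over all genes and a threshold of 0.05. Of all genes tested, 24.5% were called higher in this comparison, against 5 of 10 here. In bulk tissue, fewer cells of a type and less RNA per cell cannot be told apart, and neither can more cells and more RNA.

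Flt1 encodes VEGF receptor 1, which binds VEGF tightly and signals weakly (ENSMUSG00000029648, GRCm38 chromosome 5, 147561604 to 147726011, minus strand). It measured 44.4, 54.4, 56.1 and 65.0 CPM in FAN time-restricted kidneys, against 24.9, 24.0, 33.0 and 26.8 CPM in vehicle time-restricted kidneys. Every FAN kidney lay above every vehicle kidney, and its log2 level was higher by 1.02 ± 0.17 (SE; edgeR adjusted p = 0.00011). Kdr encodes VEGF receptor 2, the main signalling receptor (ENSMUSG00000062960, chromosome 5, 75932827 to 75978458, minus strand). It measured 25.4, 27.8, 30.5 and 48.4 CPM in FAN time-restricted kidneys, against 20.7, 17.7, 19.2 and 14.6 CPM in vehicle time-restricted kidneys. The groups did not overlap, FAN library 12 was far the highest, and the change was 0.86 ± 0.23 (adjusted p = 0.00533).

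Tek encodes the angiopoietin receptor TIE2 (ENSMUSG00000006386, chromosome 4, 94739289 to 94874976, plus strand). Its values were 30.8, 38.5, 35.9 and 52.4 CPM in FAN time-restricted kidneys, against 18.2, 22.3, 23.5 and 20.7 CPM in vehicle time-restricted kidneys, again without overlap. The log2 change was 0.89 ± 0.16 (adjusted p = 0.000244). Eng (ENSMUSG00000026814, chromosome 2, 32646595 to 32682669, plus strand) measured 37.7, 53.8, 66.6 and 61.0 CPM in FAN time-restricted kidneys, against 25.3, 35.8, 36.4 and 22.9 CPM in vehicle time-restricted kidneys. The lowest FAN kidney was just above the highest vehicle kidney, and the change was 0.86 ± 0.22 (adjusted p = 0.00503). Groups without overlap on the higher side occurred in 22.4% of all genes tested, against 4 of these 10.

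Emcn (ENSMUSG00000054690, chromosome 3, 137341067 to 137432185, plus strand) measured 78.0, 92.2, 108 and 117 CPM in FAN time-restricted kidneys, against 41.3, 85.6, 62.7 and 61.8 CPM in vehicle time-restricted kidneys. Vehicle library 2 fell within the FAN range, and the change was 0.65 ± 0.22 (adjusted p = 0.025). The call for Emcn was lost when any of FAN libraries 11 and 12 or vehicle libraries 1, 3 and 4 was left out, with adjusted p between 0.0513 and 0.0873.

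The junction genes did not pass in edgeR's fit of all 4 groups. Cdh5 (ENSMUSG00000031871, chromosome 8, 104101625 to 104144511, plus strand) measured 10.5, 13.2, 15.0 and 17.5 CPM in FAN time-restricted kidneys, against 7.79, 11.7, 9.40 and 6.84 CPM in vehicle time-restricted kidneys. Vehicle library 2 overlapped the FAN group, and the change of 0.63 ± 0.26 had an adjusted p of 0.0541. Cdh5 did pass with limma voom (0.54, adjusted p = 0.0319), with the 2 groups alone (0.61, adjusted p = 0.025), with total-count scaling (0.73, adjusted p = 0.0436) and without FAN library 6 (0.75, adjusted p = 0.0368). Pecam1 (ENSMUSG00000020717, chromosome 11, 106654217 to 106750628, minus strand) measured 28.6, 42.7, 42.2 and 55.9 CPM in FAN time-restricted kidneys, against 21.6, 48.6, 28.5 and 27.4 CPM in vehicle time-restricted kidneys. Its change was 0.42 ± 0.26 (adjusted p = 0.199), and vehicle library 2 stood apart from the other vehicle kidneys.

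Plvap, Ehd3 and Vwf did not pass either. Plvap (ENSMUSG00000034845, chromosome 8, 71497765 to 71511752, minus strand) averaged 58.5 ± 13.5 CPM in FAN time-restricted and 41.3 ± 9.92 CPM in vehicle time-restricted kidneys (SD, n = 4 each), a change of 0.49 ± 0.20 (adjusted p = 0.0509) that passed with limma voom (0.43, adjusted p = 0.0302). Ehd3 (ENSMUSG00000024065, chromosome 17, 73804134 to 73832094, plus strand) averaged 18.1 ± 4.94 CPM in FAN and 14.5 ± 2.56 CPM in vehicle kidneys, a change of 0.31 ± 0.24 (adjusted p = 0.326). Vwf (ENSMUSG00000001930, chromosome 6, 125546774 to 125686679, plus strand) measured 2.10, 2.97, 1.57 and 7.81 CPM in FAN time-restricted kidneys, against 2.5, 5.60, 2.38 and 1.96 CPM in vehicle time-restricted kidneys. The groups overlapped, with the highest value in FAN library 12, the next highest in vehicle library 2 and the lowest in FAN library 11, and the 95% interval of the change ran from −0.99 to 1.22.

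The median change of the 10 genes was 0.64, and that of all genes tested was 0.05. Without vehicle time-restricted 2 the calls numbered 8, with Pecam1, Cdh5 and Plvap added. That library held the highest vehicle time-restricted value of each of these added genes. The share of all genes called without it is not given here. A fit with sheet position as a covariate left 2 calls, Flt1 (0.81, adjusted p = 0.0187) and Tek (0.62, adjusted p = 0.0356). The share of all genes called in that fit is not given here. In the earliest positions alone, with 1 FAN and 2 vehicle time-restricted libraries, the change of Flt1 was 0.79. In these earliest positions Pecam1 (−0.36), Ehd3 (−0.28), Plvap (−0.12) and Vwf (−1.02) lay below 0.

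Under ad libitum feeding Cdh5, Flt1 and Eng rose after FAN, by 0.48 to 0.94 on the log2 scale, and the remaining 7 genes did not pass. Of all genes tested 32.1% were called higher in this comparison, so 3 of 10 is a share near that of all genes. The median change of the 10 genes was 0.13, and that of all genes 0.06. Only Eng had groups that did not overlap, which 29% of all genes had on the higher side.

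Eng measured 87.1, 97.3, 56.8 and 70.3 CPM in FAN ad libitum kidneys, against 40.9, 55.6, 28.1 and 38.2 CPM in vehicle ad libitum kidneys. Its log2 change was 0.94 ± 0.22 (adjusted p = 0.00144 by edgeR). Cdh5 measured 26.3, 30.4, 15.5 and 15.6 CPM in FAN ad libitum kidneys, against 15.1, 16.1, 11.1 and 8.33 CPM in vehicle ad libitum kidneys. FAN libraries 6 and 7, of the earliest positions, were far above libraries 10 and 12, of the latest, which overlapped the vehicle range. The change was 0.79 ± 0.25 (adjusted p = 0.0105).

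Flt1 measured 52.3, 50.9, 53.5 and 47.9 CPM in FAN ad libitum kidneys, against 49.2, 39.4, 25.3 and 32.7 CPM in vehicle ad libitum kidneys. FAN kidneys were narrowly grouped and vehicle library 1 overlapped them, with a change of 0.48 ± 0.17 (adjusted p = 0.0188). The call for Flt1 was lost without vehicle library 3 (0.33, adjusted p = 0.0777), without vehicle library 4 (0.42, adjusted p = 0.0601) and in the fit that included sheet position (0.34, adjusted p = 0.162). It was also lost in the earliest positions alone (0.18, adjusted p = 0.32) and in the fit of those 2 groups only (0.44, adjusted p = 0.0534).

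The partner receptor Kdr averaged 26.4 ± 6.22 CPM in FAN ad libitum and 26.0 ± 7.45 CPM in vehicle ad libitum kidneys, with a change of 0.02 and a 95% interval of −0.45 to 0.49. Tek averaged 30.0 ± 4.73 CPM in FAN and 28.4 ± 4.47 CPM in vehicle kidneys, with a change of 0.08 and an interval of −0.26 to 0.41. For Pecam1 (0.16), Ehd3 (0.10), Plvap (−0.12) and Emcn (−0.13) the adjusted p lay between 0.597 and 0.731. Vwf measured 5.72, 15.0, 4.81 and 4.72 CPM in FAN ad libitum kidneys, against 4.64, 5.43, 3.60 and 1.89 CPM in vehicle ad libitum kidneys. The high value belonged to FAN library 7, and the change of 0.94 ± 0.50 had an adjusted p of 0.11 (1.10 and 0.0336 with limma voom).

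These values depend on how libraries are scaled. Scaling by total counts in place of TMM moved the median change of all genes under ad libitum feeding to 0.76, and all 10 endothelial genes were then called higher, with a median of 0.83, as were 61.0% of all genes tested. The share of all calls on the higher side was 83.9% with total counts and 52.8% with TMM. Relative to the all-gene median, Eng (1.64), Vwf (1.66), Cdh5 (1.50) and Flt1 (1.18) lay above it, while Emcn (0.54) and Plvap (0.58), which were below 0 under TMM, were below that median. Under time-restricted feeding the same scaling moved the all-gene median from 0.05 under TMM to 0.16 and called 7 of the 10 genes higher, with Cdh5 and Plvap added, and 28.5% of all genes.

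**Figure D2:**
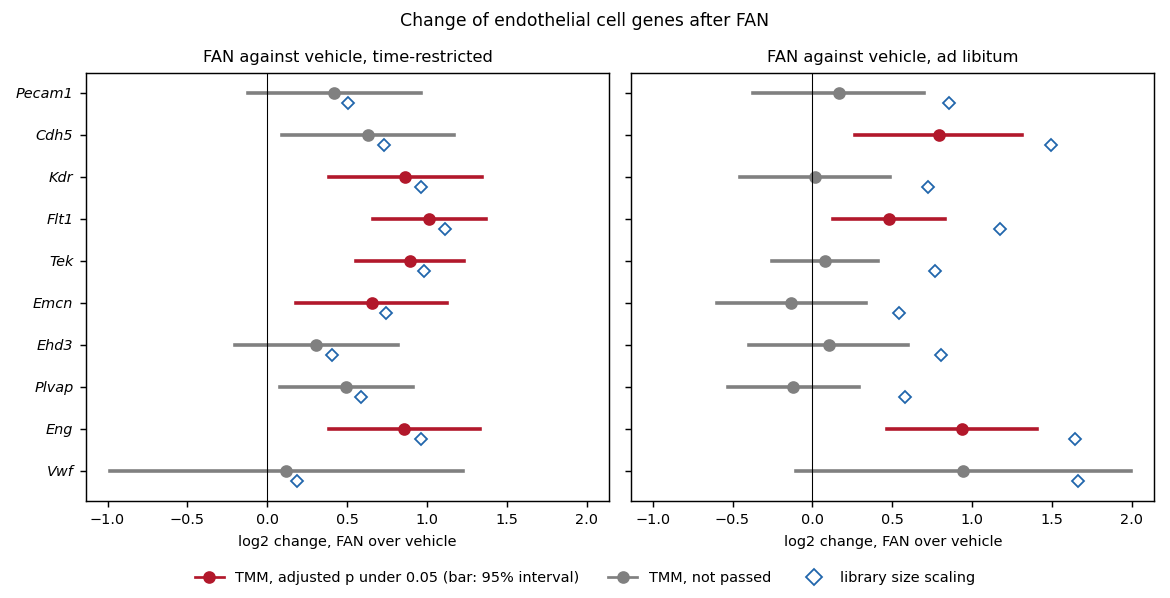
Log2 change of each endothelial cell gene, FAN over vehicle, under time-restricted (left) and ad libitum feeding (right). Circles with bars are TMM-scaled changes with 95% intervals, red where the adjusted p is under 0.05, and diamonds are the changes with total-count scaling, which lie further right under ad libitum feeding.

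The interaction, the FAN change under time-restricted feeding minus that under ad libitum feeding, asked whether FAN acted differently by regimen. It passed for Tek alone, at 0.81 ± 0.23 (adjusted p = 0.0293 by edgeR), with Tek higher after FAN under time-restricted feeding by 0.89 and under ad libitum feeding by 0.08. Of all genes tested 7.76% had an interaction called on that side, against 1 of 10 here. Kdr (0.84, adjusted p = 0.111), Emcn (0.79, 0.133), Plvap (0.61, 0.186) and Flt1 (0.54, 0.173) had positive values that did not pass, and Pecam1 (0.26), Ehd3 (0.20), Cdh5 (−0.16) and Eng (−0.08) were smaller. Vwf had a value of the opposite sign and like size to that of Tek (−0.83, adjusted p = 0.524). Limma voom called Emcn as well (0.97, adjusted p = 0.0231). The Tek call was lost with total-count scaling (0.22, with an all-gene median of −0.57), in the earliest positions alone (0.71, adjusted p = 0.116), and without FAN time-restricted 12, FAN ad libitum 6, FAN ad libitum 7, vehicle time-restricted 1 or vehicle ad libitum 2, where adjusted p lay between 0.0532 and 0.0658. Averaged over both regimens, 5 of the 10 genes rose after FAN, against 34.8% of all genes tested, namely Cdh5 (0.71), Kdr (0.44), Flt1 (0.75), Tek (0.48) and Eng (0.90). All 4 groups enter the interaction, so it shares libraries with each comparison of FAN or of feeding.

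The feeding comparison within FAN mice, time-restricted against ad libitum, asked what the regimen did in treated kidneys. None of the 10 endothelial genes passed, while 31.8% of all genes tested were called in either direction. At an unadjusted p under 0.05 there were 4, Cdh5, Tek, Eng and Vwf, against 7499 of all 17731 genes. DESeq2 called 2 (Cdh5 and Vwf, lower), against 6257 of all genes in either direction. Limma voom with sample weights called 4 (Cdh5, Eng and Vwf, lower, and Tek, higher), against 9304 of all genes.

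Cdh5 measured 10.5 to 17.5 CPM in FAN time-restricted and 15.5 to 30.4 CPM in FAN ad libitum kidneys, a change of −0.66 ± 0.25 (adjusted p = 0.0518). Eng ranged from 37.7 to 66.6 CPM in FAN time-restricted and from 56.8 to 97.3 CPM in FAN ad libitum kidneys, a change of −0.51 ± 0.22 (adjusted p = 0.0872). Tek ranged from 30.8 to 52.4 CPM in FAN time-restricted and from 26.2 to 36.9 CPM in FAN ad libitum kidneys, a change of 0.39 ± 0.16 (adjusted p = 0.0702). In all 3 genes the groups overlapped. Vwf had the widest interval, with a change of −1.14 and bounds of −2.21 and −0.06 (adjusted p = 0.0981). For Plvap the change was −0.03 and the interval −0.44 to 0.38, and for Flt1 0.10 and −0.25 to 0.45.

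Sheet position divided this comparison. In the earliest positions, with 1 FAN time-restricted and 2 FAN ad libitum libraries, Cdh5 (−1.47, adjusted p = 0.00543), Eng (−1.32, 0.00916), Ehd3 (−1.05, 0.00431) and Plvap (−0.68, 0.0361) fell, where 4995 of 19679 genes were called in either direction. There the lone library is assumed to vary like the others. In the latest positions, with 3 FAN time-restricted and 2 FAN ad libitum libraries, none of the 10 passed, although 2129 of 17446 genes were called, and Cdh5 (−0.03), Eng (−0.07), Ehd3 (0.38) and Plvap (0.29) lay near or above 0. The difference between the positions was not tested, and position cannot be told apart from the individual libraries it holds. Total-count scaling moved the all-gene median from −0.02 under TMM to −0.67 and called 7 of the 10 genes lower, with a median of −0.77 for the 10, as it did 59.3% of all genes tested. Leaving out single libraries gave between 0 and 3 calls, and the most, Cdh5, Tek and Eng, came without FAN ad libitum 10. The shares of all genes called in those fits are not given here.

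**Figure D3:**
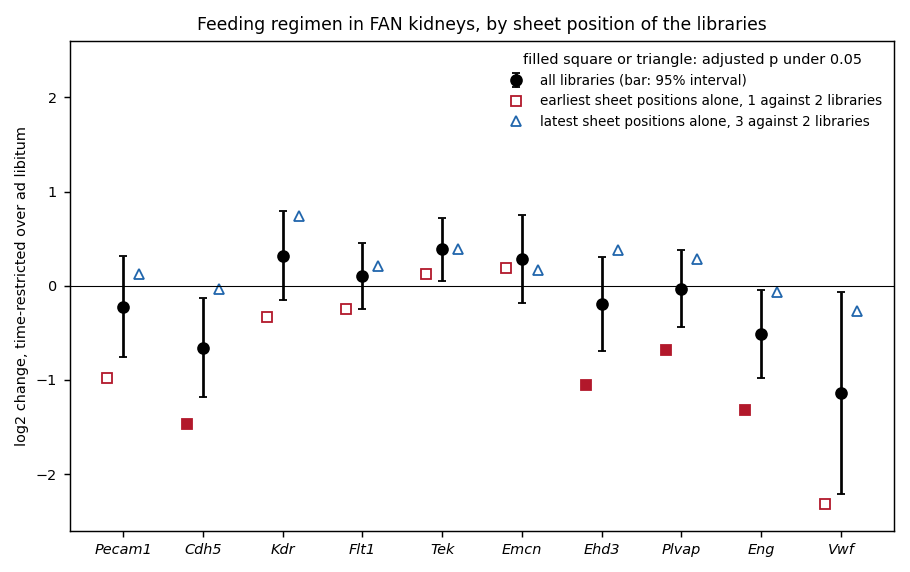
Log2 change, time-restricted over ad libitum feeding in FAN kidneys, for all libraries (black, 95% interval), the earliest sheet positions alone (squares) and the latest alone (triangles). Filled symbols have an adjusted p under 0.05, and Cdh5, Ehd3, Plvap and Eng are the 4 filled squares.

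In vehicle mice the feeding comparison gave a log2 change below 0 for all 10 genes, and none passed the test. The changes ran from −0.31 for Vwf to −0.64 for Plvap, with a median of −0.46, against −0.01 for all genes. edgeR called 0% of all genes tested, with 1143 genes and 5 of the 10 at an unadjusted p under 0.05, while DESeq2 called 57 genes and limma voom 35, none of them among the 10. All 10 genes come from the same 8 vehicle libraries, so their shared sign is not 10 separate observations.

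Plvap measured 37.1, 50.5, 48.3 and 29.3 CPM in vehicle time-restricted kidneys, against 72.4, 79.3, 46.6 and 60.4 CPM in vehicle ad libitum kidneys. Ad libitum library 3 lay within the time-restricted range, and the unadjusted p was 0.00433 with an adjusted p of 0.492. Tek was the only gene without overlap, at 18.2 to 23.5 CPM in vehicle time-restricted and 25.9 to 35.1 CPM in vehicle ad libitum kidneys, a change of −0.43 ± 0.16 (adjusted p = 0.661). Groups without overlap on the lower side occurred in 2% of all genes. In the earliest positions alone the 10 changes ran from −0.31 to −0.86, and in the middle positions alone from −0.46 to 0.04, with Flt1 just above 0.

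In some libraries all 10 genes lay on the same side of their group's mean, and in others they were split. FAN time-restricted 12 lay above its group's mean in all 10 genes and FAN time-restricted 6 below it in all 10, with median deviations of 0.41 and −0.42 on the log2 scale. Vehicle ad libitum 2 lay above its group's mean in all 10 and vehicle ad libitum 4 below it in all 10, with medians of 0.36 and −0.19. FAN time-restricted 10 and 11 each had 5 genes above and 5 below, and FAN ad libitum 6 and 7 each had 7 above and 3 below. In the other 8 libraries 7 to 9 of the 10 genes lay on the same side. FAN time-restricted 12 was also the library with the lowest total count. Over all 16 libraries the SD of log2 CPM ran from 0.38 for Tek to 0.62 for Eng, and was 0.86 for Vwf.

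Likeness of pattern was measured as the root mean square difference of centred log2 CPM over the 16 libraries, where a small value means a like pattern, and libraries share depth and composition across genes. Among the 10, Ehd3 and Plvap were the closest pair (0.18), followed by Cdh5 and Eng (0.24), and Emcn and Vwf the farthest (0.83). A total of 11250 genes with a symbol averaged at least 5 CPM, and those outside the 10 were searched for each member's nearest gene. The nearest to Tek was Clec14a (0.16), an endothelial lectin gene, and the nearest to Ehd3 was Notch4 (0.17), an endothelial Notch receptor gene. Tie1, the sister receptor of Tek, was the nearest gene to Flt1 (0.19), Plvap (0.21) and Kdr (0.24). The nearest to Eng was the semaphorin receptor gene Plxnd1 (0.18), to Emcn Rflnb (0.20), to Pecam1 Boc (0.22), to Cdh5 Icosl (0.23) and to Vwf Tiam1 (0.43). The median over all these genes lay between 0.52, for Plvap, and 0.92, for Vwf.

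Ratios within a library do not depend on its scaling. The 3 ratios set in the design were Plvap to Ehd3, Kdr to Flt1 and Vwf to Pecam1, and each was compared over 4 contrasts by a two-sided exact permutation test of 4 against 4, whose smallest p is 0.0286. The log2 ratio of Kdr to Flt1 was −0.99 ± 0.32 (SD, n = 4) in FAN ad libitum and −0.50 ± 0.04 in vehicle ad libitum kidneys, without overlap, a difference of −0.49 (exact p = 0.0286, adjusted p = 0.257 over 12 tests). Under time-restricted feeding it was −0.77 ± 0.24 in FAN and −0.59 ± 0.28 in vehicle kidneys, a difference of −0.18 (exact p = 0.286). The ratio of Plvap to Ehd3 was 1.49 ± 0.17 in vehicle time-restricted and 1.77 ± 0.12 in vehicle ad libitum kidneys (exact p = 0.0571). None of the 12 passed after adjustment.

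Of 26 other pan-endothelial genes, a list without the 10, 17 rose and 9 did not pass after FAN under time-restricted feeding, with a median of 0.82, where 24.5% of all genes were called higher. Under ad libitum feeding 12 rose and 14 did not pass, with a median of 0.43, where 32.1% of all genes were called higher. None of the 26 fell under either regimen, and 3 had ad libitum changes below 0, Esam (−0.32), Icam2 (−0.30) and Egfl7 (−0.0073), which did not pass. The smallest p under time-restricted feeding belonged to Cyyr1 (1.94), the phagocytic receptor gene Cd93 (1.50), the ETS factor gene Fli1 (1.55) and the adhesion receptor gene Adgrl4 (1.34). Under ad libitum feeding they belonged to Fli1 (2.11), Cd93 (1.63), Cyyr1 (1.59) and Ecscr (1.80). Fli1 and Cd93 are also expressed by leukocytes, whose markers also rose. With sheet position as a covariate 8 rose under time-restricted feeding and 9 under ad libitum feeding, where 1 fell. The share of all genes called in that fit is not given here. In the feeding comparison in FAN mice 1 of the 26, Cd93, fell (−0.60, adjusted p = 0.0103), where 2459 of all 17731 genes tested fell. In vehicle mice none of the 26 passed, and 0 of all genes did.

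**Figure D4:**
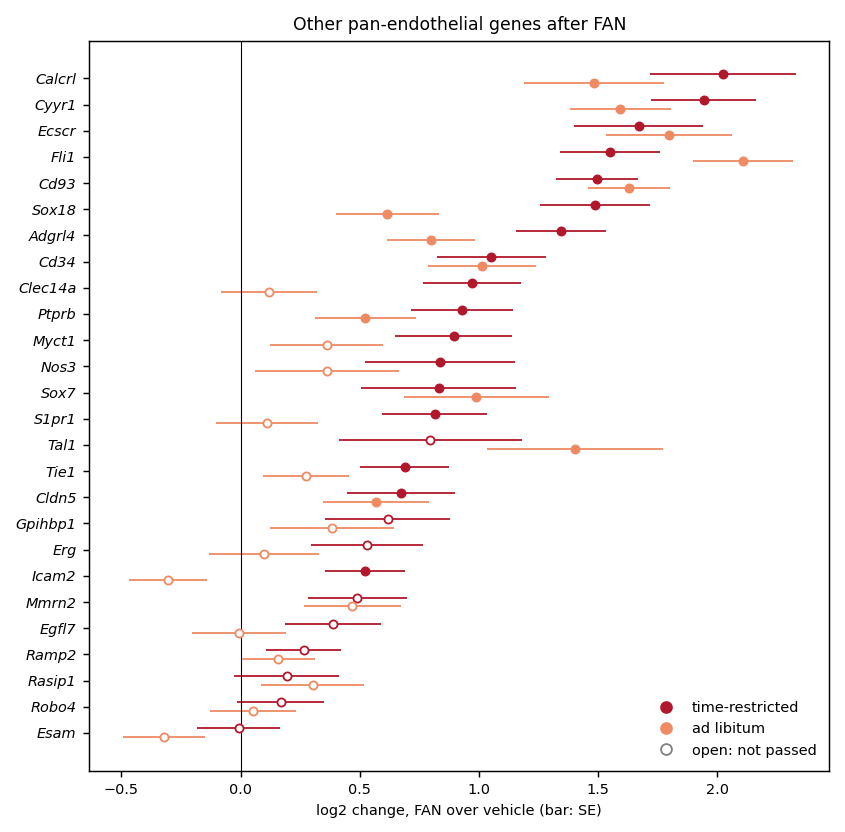
Log2 change with SE, FAN over vehicle, of the 26 other pan-endothelial genes under time-restricted (dark red) and ad libitum feeding (orange), ordered by the change under time-restricted feeding. Filled points passed the test, and Calcrl, Cyyr1, Ecscr, Fli1 and Cd93 lie at or above 1.48 under both regimens.

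Genes of the VEGF pathway other than Kdr and Flt1 changed in both directions. Counts in this and the following lists stand against all 17731 genes tested. Among all of them 4349 rose and 3370 fell under time-restricted feeding, and 5691 rose and 5079 fell under ad libitum feeding. Of 8 genes, namely 5 ligands, the co-receptors Nrp1 and Nrp2 and the VEGF receptor 3 gene Flt4, 4 rose and 1 fell under time-restricted feeding, and 4 rose and 2 fell under ad libitum feeding. Flt4 rose under ad libitum feeding (0.65). The co-receptor genes Nrp2 (1.61 under time-restricted and 1.79 under ad libitum feeding) and Nrp1 (0.82 and 1.07) rose, as did the lymphatic ligand gene Vegfd (1.08 and 1.18), while Vegfc rose under time-restricted feeding (1.12) and had a change of 0.37 that did not pass under ad libitum feeding. Vegfa, the main ligand, measured 137 ± 3.18 CPM in FAN time-restricted and 197 ± 20.7 CPM in vehicle time-restricted kidneys, and 113 ± 6.93 CPM in FAN ad libitum and 206 ± 40.2 CPM in vehicle ad libitum kidneys. It fell by 0.53 (adjusted p = 0.00268) and by 0.87 (adjusted p = 1.29e-05), and with total-count scaling its ad libitum change was −0.16 and did not pass. In kidney Vegfa is made largely by podocytes and tubule cells.

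In the angiopoietin pathway, outside Tek, 3 of 4 genes rose and 1 fell under time-restricted feeding. The phosphatase gene Ptprb (0.93), the agonist gene Angpt1 (1.19) and Tie1 (0.69) rose, and the context-dependent antagonist gene Angpt2 fell by 0.76 (adjusted p = 0.0486), a call lost with total-count scaling. Under ad libitum feeding Ptprb rose (0.52), Angpt2 fell by 0.82 (adjusted p = 0.0218; not passed with total-count scaling), and Angpt1 (0.34) and Tie1 (0.27) did not pass.

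Of 15 genes of the endoglin pathway 13 were tested. Among all genes tested, 24.5% were called higher under time-restricted and 32.1% under ad libitum feeding. Under time-restricted feeding 9 rose and none fell, led by Smad1 (1.15), Id3 (1.59), Tgfbr1 (1.09) and Tgfb1 (1.76). Under ad libitum feeding 10 rose, led by Smad1 (1.27), Tgfbr2 (1.33), Tgfbr1 (1.39) and Tgfb1 (2.70), and 2 fell, Id1 (−1.07) and Id2 (−0.56). With total-count scaling neither fall passed and Id2 was at 0.13. Acvrl1, the type I receptor that works with endoglin in endothelium, rose by 0.68 and 0.90. The ligand genes Gdf2 and Bmp10 were not tested, and Bmp10 had no count in any library.

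Among the VE-cadherin partners Ptprb and the beta-catenin gene Ctnnb1 (0.42) rose under time-restricted feeding and 3 of 5 did not pass. Under ad libitum feeding Ctnnb1 (0.71), the alpha-catenin gene Ctnna1 (0.36) and Ptprb rose, and the p120-catenin gene Ctnnd1 fell (−0.39), with 0.32 and no call under total-count scaling. Of the paralogs of Ehd3, Ehd4 (1.08 and 0.98) and Ehd2 (0.60 and 1.06) rose and Ehd1 fell (−0.50 and −1.02), under time-restricted and ad libitum feeding in that order. Of 5 genes tested around von Willebrand factor, Selp alone passed, and Rab27a, F8, Stxbp5 and Gp1ba did not pass under either regimen. Selp entered the test through FAN libraries alone, since its vehicle values were below the filter on low counts.

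Genes of endothelial activation rose after FAN under both regimens, with 5 of 5 adhesion molecules called each time. Vcam1 changed by 5.12 and 5.04, Icam1 by 1.66 and 2.43, Madcam1 by 2.25 and 2.85 and Sele by 2.78 and 1.75. Selp, the P-selectin gene stored with von Willebrand factor, measured 0.186 to 0.707 CPM in FAN time-restricted, 0.513 to 1.72 CPM in FAN ad libitum and at most 0.0423 CPM in vehicle time-restricted kidneys, and had no count in vehicle ad libitum kidneys. It passed the filter on low counts through FAN libraries alone, which favours a rise, so its place among the 5 calls carries that limit. Vcam1 and Icam1 are also made by injured tubule cells and leukocytes. The 5 endothelial-mesenchymal factor genes Snai1, Snai2, Twist1, Zeb1 and Zeb2 rose under both regimens, with medians of 2.15 and 1.95; fibroblasts and leukocytes express several of them too.

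Markers of vessel types did not all move. Of 8 arterial genes 3 rose under each regimen, Efnb2 (1.46 and 1.64), Jag1 (0.88 and 1.40) and Dll4 (0.55 and 0.55), and Gja5, Gja4, Sox17, Bmx and Hey1 did not pass. Of the venous genes Ephb4 rose (0.58 and 0.73) and Nr2f2 rose under time-restricted feeding (0.46). Of 6 lymphatic genes tested, Pdpn (2.48 and 3.11) and Lyve1 (2.77 and 2.41) rose under both regimens. Mmrn1 rose under time-restricted feeding (1.40) and Flt4 under ad libitum feeding (0.65). Prox1 (−0.49 and −0.93) and Reln (−0.47 under ad libitum feeding) did not pass under either regimen. Averaged over both regimens, 2 of the 6 rose and 2 fell, against 6177 and 5422 of all 17731 genes tested. Whether these transcripts came from lymphatic cells was not tested. None of the 3 glomerular endothelial genes tested passed, with Plat at 1.0 under each regimen (adjusted p = 0.0778 and 0.0588). Among 8 hypoxia response genes Car9 fell under both regimens (−1.90 and −3.21) and Bnip3 (−1.35) and Egln3 (−0.42) under ad libitum feeding, Egln3 with 0.28 and no call under total-count scaling.

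Markers of several other cell types moved with FAN in the same libraries, while 4 of 5 distal nephron genes did not pass under either regimen. Among all 17731 genes tested, 4349 rose and 3370 fell under time-restricted feeding, and 5691 rose and 5079 fell under ad libitum feeding. The 8 leukocyte genes summed to 536 to 1081 CPM in FAN time-restricted, 977 to 1815 CPM in FAN ad libitum, 84.0 to 118 CPM in vehicle time-restricted and 95.3 to 159 CPM in vehicle ad libitum kidneys, and 6 of 8 rose under time-restricted and 7 of 8 under ad libitum feeding. Pericyte and fibroblast genes summed to 272 to 446, 421 to 722, 162 to 225 and 158 to 297 CPM in the same order of groups, with 6 of 8 rising each time. Podocyte genes summed to 185 to 342, 204 to 346, 106 to 178 and 111 to 242 CPM, with 5 of 7 rising each time, and proximal tubule genes summed to 3989.6 to 5284, 1131 to 2682, 8519 to 10297 and 8407 to 9373 CPM, with 6 of 7 falling each time. Of 6 platelet and megakaryocyte genes 3 were tested, of which Pf4 rose (1.21 and 2.27) and Itga2b fell (−1.11 and −1.32), and the list summed to 6.83 to 11.4 CPM over all FAN and 9.61 to 17.4 CPM over all vehicle kidneys. Distal nephron genes summed to 1263 to 2301 CPM in FAN time-restricted and 1423 to 2849 CPM in FAN ad libitum kidneys. They summed to 2063 to 2417 CPM in vehicle time-restricted and 2017 to 2469 CPM in vehicle ad libitum kidneys, with 1 of 5 falling after FAN each time. The part of these cell types in the values of the 10 endothelial genes was not tested.

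A total of 3 of the 10 genes overlap other annotated genes in GENCODE M21. Cdh5 shares bases with the antisense gene Gm29682, Plvap with Gtpbp3 on the opposite strand, and Eng with Fpgs on the opposite strand and with 3 small RNA genes on its own. The strand setting of the counting is not given in the sources used here, so reads of those partners may be part of the counts of Cdh5, Plvap and Eng.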

How the data were processed

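RNA of whole mouse kidneys was extracted with TRIzol and made into stranded mRNA libraries, per the labels' protocols. The authors deposited a single table of raw counts by Ensembl gene. The submitters' processing notes name STAR 2.5.3a, FastQC 0.11.5 and edgeR 3.26.7, with the build mm10; which tool counted reads, and with which strand setting, is not given in the sources used here. Vehicle columns matched their titles. FAN columns could be matched to a group but not to a title, so their libraries carry the number in the column name.

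Counts were analysed here with edgeR 4.0.16 in R 4.3.3. Genes were kept by filterByExpr (minimum count 10), libraries were scaled by TMM, and all 16 entered a single 4-group robust quasi-likelihood fit. Adjusted p are Benjamini-Hochberg values over the 17731 genes that passed, called under 0.05, and log2 CPM used a prior count of 2. The fit was tested on simulated data. Alternatives were total-count scaling, DESeq2 1.42.0 and its size factors, limma 3.58.1 voom with sample weights, removal of mitochondrial transcripts, no filter, 2 groups only, sheet position as a covariate or alone, and leaving out each library. The labels list separate samples but do not number animals, so p-values measure the spread between samples. Replicates of a group differed, since the chi-square per gene of every pair was 18.4 or more.

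The 10 genes, the 20 gene lists with 143 genes and the tests were chosen with earlier results of these data known. Up to 4 genes per list, those with the smallest p, were named. Genes named beyond this, where a count was 5 or fewer, were chosen after their values were seen. Coordinates and transcript lengths were looked up by Ensembl identifier in GENCODE M21 (GRCm38), since 2.9% of starts in the table equal GENCODE M21. Promoter sequences came from RefSeq on GRCm38. A match was an exact one on either strand within the 300 bases of an entry.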

Additional observations from a re-analysis of the deposited data

Results flagged for a closer look

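Within groups of 4 libraries, 3 of the 52 sets of values tested had a library far from the other 3, where chance gives about 1 in 20. For each, the gap to the nearest other library was divided by the range of the group, and set against Dixon's 95% critical value. Tek in vehicle ad libitum kidneys had its highest value, 35.1 CPM, in library 2, with a gap of 0.907 of the range. Vwf in FAN ad libitum kidneys had its highest value, 15.0 CPM, in library 7, with a gap of 0.902. Vwf in vehicle time-restricted kidneys had its highest value, 5.60 CPM, in library 2, with a gap of 0.851.

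The change after FAN differed between feeding regimens, by the interaction term of edgeR's fit, for 6 of 106 genes tested in the endothelial and hypoxia lists, where 7.76% of all genes had an interaction called on that side. The values are the change under time-restricted feeding minus that under ad libitum feeding. Tek had 0.81 (adjusted p = 0.0293), the junction gene Icam2 0.83 (0.0332), Id1 1.0 (0.0127), the lymphatic gene Mmrn1 1.80 (0.0483), Car9 1.30 (0.0078) and Bnip3 1.42 (0.00305). With total-count scaling, which moved the median interaction of all genes to −0.57, 1 of the 6 passed, Bnip3 (0.83, adjusted p = 0.016). The others then had 0.22 for Tek (adjusted p = 0.452), 0.24 for Icam2 (0.474), 0.40 for Id1 (0.216), 1.22 for Mmrn1 (0.0884) and 0.70 for Car9 (0.105). Icam2 measured 7.57 ± 1.47 CPM (SD, n = 4) in FAN time-restricted, 5.73 ± 0.437 CPM in FAN ad libitum, 5.26 ± 0.556 CPM in vehicle time-restricted and 7.07 ± 1.02 CPM in vehicle ad libitum kidneys.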

How the results depend on the processing

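Total-count scaling in place of TMM called 10 endothelial genes for FAN under ad libitum feeding and 10 over both regimens (5 with TMM), 7 for feeding in FAN mice and 0 for the interaction. Of all genes tested it called 61.0% higher after FAN under ad libitum feeding and 55.1% higher over both regimens. For feeding in FAN mice it called 59.3% lower. It turned the FAN change under ad libitum feeding to 0.54 for Emcn and 0.58 for Plvap, the feeding change in FAN mice to −0.34 for Kdr, −0.54 for Flt1, −0.26 for Tek and −0.35 for Emcn, and the interaction to −0.35 for Pecam1, −0.060 for Flt1 and −0.40 for Ehd3. For feeding in FAN mice DESeq2's size factors called 1 and removal of mitochondrial transcripts 1. DESeq2 called 2, against 6257 of all 17731 genes in either direction, and voom 4, against 9304. Voom called 2 interactions (5264 of all genes), 7 for FAN under time-restricted feeding (10117) and 4 under ad libitum feeding (12018). The fits of 2 groups only called 6 for FAN under time-restricted and 2 under ad libitum feeding. Shares of all genes are not given here for the size factors, the mitochondrial removal and the fits of 2 groups. Voom turned the ad libitum FAN change to −0.025 for Tek and 0.029 for Plvap, the feeding change of Kdr to −0.0078 and the interaction of Ehd3 to −0.18, and the fit of 2 groups only turned Kdr under ad libitum feeding to −0.023.

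Sheet position as a covariate left 2 calls for FAN under time-restricted feeding and 3 over both regimens, and turned the ad libitum FAN change to −0.032 for Pecam1, −0.096 for Kdr and −0.10 for Tek. The earliest positions alone hold 1 FAN time-restricted library, so only changes are given for them in this paragraph. They turned the time-restricted FAN change to −0.36 for Pecam1, −0.28 for Ehd3, −0.12 for Plvap and −1.02 for Vwf, the ad libitum FAN change to −0.056 for Kdr and −0.17 for Tek, the feeding change in FAN mice to −0.33 for Kdr and −0.25 for Flt1, and the interaction to −0.47 for Pecam1 and −0.37 for Ehd3. The middle and latest positions alone were added after seeing the data. The middle turned Flt1 in vehicle mice to 0.043, and the latest turned the feeding change in FAN mice to 0.12 for Pecam1, 0.38 for Ehd3 and 0.29 for Plvap. The cause was not tested for any of these.

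Leaving out each library gave 4 to 8 calls for FAN under time-restricted feeding, 2 to 3 under ad libitum feeding, 0 to 3 for feeding in FAN mice, 0 in vehicle mice and 0 to 1 interactions. Of 480 gene changes so recomputed, 434 kept their direction and side of the threshold, 13 passed newly, 12 were lost and 21 changed sign. The signs that changed belonged to the ad libitum FAN change of Pecam1 (−0.017 to 0.31), Kdr (−0.12 to 0.20), Tek (−0.036 to 0.19) and Ehd3 (−0.044 to 0.27), the time-restricted change of Vwf (−0.52 to 0.58), the feeding change of Plvap in FAN mice (−0.17 to 0.10), and the interaction of Cdh5 (−0.29 to 0.039) and Eng (−0.26 to 0.070), each given as the range over all libraries left out.

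The titles number both vehicle groups 1 to 4. With that number as a replicate block, 0 of the 10 genes passed for feeding in vehicle mice, as without it, with changes from −0.36 for Vwf to −0.64 for Plvap. The deviations of same-numbered libraries correlated at 0.18, 0.12, −0.15 and −0.01, so the numbers were not taken to pair them. Time-restricted 1 alone correlated best with the ad libitum library of its number. Time-restricted 2 correlated best with ad libitum 3 (0.32), time-restricted 3 with ad libitum 4 (0.090) and time-restricted 4 with ad libitum 1 (0.081). FAN columns were matched to a group and not to single titles, so their numbers were not used as a block. Vwf, with 24 to 729 counts, had the widest intervals.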
